A study of Homo sapiens with 9 samples.

Results

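The sites held by CTCF and by the cohesin subunit RAD21 were compared with each other in HEC-1-B cells that carry a ZNF143 knockout. The members are all peaks of the 2 knockout lists on chromosomes 1 to 22 and X. They number 63420 CTCF peaks and 56861 RAD21 peaks, 120281 of the 354101 peaks that the 9 lists of the series hold on these chromosomes. A CTCF peak and a RAD21 peak were called co-bound when they overlapped by at least 1 bp, and a peak with no such partner was called alone. Independently of overlap, each CTCF summit was paired with its nearest RAD21 summit if that lay within 200 bp.

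The assay was ChIP-nexus, a form of chromatin immunoprecipitation in which exonucleases digest the recovered DNA up to the crosslinked protein, so that positions are resolved more finely than with sonicated fragments. HEC-1-B is a human uterine adenocarcinoma line. The knockout group is labelled ZNF143KO and was formaldehyde-crosslinked; no auxin label is attached to it. The 3 lists of wild-type HEC-1-B cells (CTCF, RAD21 and ZNF143) and the lists of CTCF-AID cells, in which CTCF carries an auxin-inducible degron, were used only to look up the knockout sites. Each group has 1 library, so no comparison below has a replicate check and no p-value is given. The labels do not say whether the knockout line is 1 clone, and ZNF143 binding in the knockout was not analysed here, so the knockout rests on its label. Peak positions carry no expression markers, so the labelled cell type was not checked either.

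CTCF is a zinc-finger protein that binds DNA at a long motif with a direction. Cohesin is a ring-shaped complex, of which RAD21 is the subunit that closes the ring, and it extrudes chromatin loops until it meets CTCF, with the N terminus of CTCF facing it. Most cohesin peaks in human cells therefore lie beside CTCF, while some lie at active promoters and enhancers. ZNF143 is a zinc-finger activator that binds promoters and has been linked to chromatin loops. The series title names enhancer and promoter looping and the geometry of CTCF and cohesin as its subject. The pair of lists examined here gives that geometry in cells labelled as ZNF143 knockout.

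Both lists start at a −log10 q of 5.00, against 3.02 or less in the wild-type lists. The summit read count and the local background of each peak were solved from the authors' fold enrichment and −log10 p. Summit counts ran from 8 to 50 (median 29) for CTCF and from 8 to 44 (median 28) for RAD21. The most frequent background came to 18.9 reads per kb in the CTCF library and 26.1 in the RAD21 library, against 5.96 to 8.63 in the wild-type libraries. The highest count, a ceiling, was reached by 2.08% of CTCF peaks and 12.3% of RAD21 peaks, whose strength is therefore ranked by background alone. Other strong peaks came near it: in the strongest 10% of each list by fold enrichment, the median count was 46 for CTCF and 41 for RAD21. Intervals in parentheses are 95% intervals, exact (Clopper-Pearson) for shares and Newcombe for differences. They cover counting error over peaks only and contain no difference between cultures.

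CTCF and RAD21 occupied largely the same places in knockout cells. Of 63420 CTCF peaks, 49673 overlapped a RAD21 peak, which is 78.3% (78.0 to 78.6). Of 56861 RAD21 peaks, 49655 overlapped a CTCF peak, which is 87.3% (87.1 to 87.6). That leaves 13747 CTCF peaks and 7206 RAD21 peaks alone, 21.7% and 12.7% of their lists. RAD21 was thus found without CTCF less often than CTCF without RAD21, over lists that differ in length. The overlapping peaks were nearly equal in number, 49673 and 49655, so the gap between the shares follows from the list lengths. With each list held to the number of peaks of the shorter one, the shares were 83.06% for CTCF and 83.08% for RAD21. This match holds by construction, because overlapping peaks were paired almost without repeats. It therefore cannot test whether either factor is more often alone.

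The overlap was almost always 1 peak on 1 peak. Only 70 CTCF peaks met more than 1 RAD21 peak, and 94 RAD21 peaks met more than 1 CTCF peak. By summits, 49865 CTCF peaks (78.6%) had a RAD21 summit within 200 bp and 49922 RAD21 peaks (87.8%) a CTCF summit. The rule and the overlap differed at few sites: 46 CTCF peaks overlapped a RAD21 peak whose summit lay farther than 200 bp, and 238 without an overlap had a RAD21 summit inside that window. Across chromosomes the CTCF share ran from 75.8% on chromosome 7 to 80.8% on chromosome 19, and the RAD21 share from 85.1% on chromosome 3 to 89.98% on chromosome 4.

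Co-binding followed the strength of the site. Peaks of each list were ranked by the authors' signal value, a fold enrichment over local background, and divided into 10 deciles of equal size with decile 1 the weakest. In the weakest decile of CTCF, with signal values of 2.37 to 8.15, 37.3% of peaks (36.1 to 38.5) overlapped RAD21. The share was 42.6% in decile 2, 55.6% in decile 3, 71.2% in decile 4, 85.9% in decile 5 and 94.0% in decile 6. It passed 99% in decile 8 and was 99.9% (99.79 to 99.97) in decile 10, where 6 CTCF peaks were alone. The strongest decile exceeded the weakest by 62.57 points (61.36 to 63.75).

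The share of RAD21 peaks also climbed with strength. In the weakest decile of RAD21, 50.3% (49.0 to 51.6) overlapped CTCF, followed by 62.2%, 77.7%, 89.0% and 95.8% in deciles 2 to 5. From decile 8 upward only 10 RAD21 peaks were alone, 1 of them in decile 10. The strongest decile exceeded the weakest by 49.69 points (48.39 to 50.99). Among the stronger 50% of each list, ranked anew, this difference was 28.98 points for RAD21 and 54.12 points for CTCF. With peaks of a −log10 q of at least 10 it was 36.69 points for RAD21. Which list started higher depended on list length: with both lists at the shorter list's number of peaks, the decile 1 share was 42.45% for CTCF and 33.52% for RAD21. With a reciprocal overlap of 50%, the decile 1 share of RAD21 was 32.76%.

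**Figure D1:**
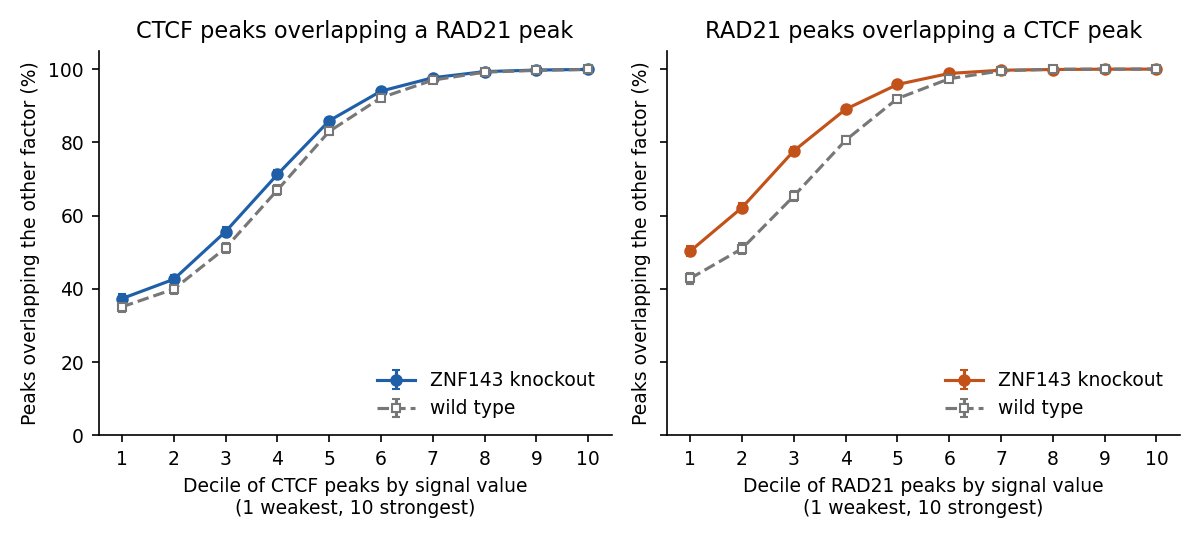
Share of peaks overlapping the other factor (%, y) by strength decile of the list (x, 1 weakest to 10 strongest) in knockout cells (filled circles) and wild-type cells (open squares), with 95% exact intervals over peaks. In the knockout the CTCF share climbs from 37.3% to 99.9% and the RAD21 share from 50.3% to 99.98%, with wild-type values at or below them in the weaker deciles.

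The wild-type pair showed the same climb, from 35.1% to 99.9% for CTCF and from 42.8% to 100% for RAD21. In the deposited lists the knockout share was 1.93 points higher for CTCF (1.45 to 2.41) and 4.48 points higher for RAD21 (4.05 to 4.91). With the wild-type lists also started at a −log10 q of 5 the differences were 3.28 and 1.65 points, and with all 4 lists at their 48906 strongest peaks they were 5.28 and 5.21 points. At equal lengths the values for CTCF and RAD21 nearly match by construction. The knockout share was the higher in these 3 forms, but the size of the difference, and which factor had the larger one, depended on the list, and the knockout libraries were the deeper ones, with 18.9 and 26.1 background reads per kb against 8.63 and 7.81. Genotype and depth cannot be told apart here.

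The 5 strongest co-bound CTCF sites are shown as examples of the shared state. Coordinates are 1-based on hg19, and no gene was assigned because no hg19 annotation was used here. The strongest CTCF peak of the list, chr11:8214211-8214361, had a signal of 29.9 and its RAD21 summit lay 5 bp away. At chr4:1161035-1161171 the CTCF signal was 29.8 and the RAD21 summit lay 2 bp away. Peak chrX:152127550-152127681 had a signal of 29.1 and a RAD21 summit at 16 bp. The next, chr4:160376865-160377011, had 29.0 and 25 bp, and chrX:33452746-33452873 had 28.9 and 31 bp. Even among these strongest sites the distance between the summits ranged from 2 to 31 bp. All 5 overlapped a peak in each of the 3 wild-type lists and in the CTCF list of CTCF-AID cells at 0 h of auxin. Over all co-bound CTCF peaks the shares were 87.7% for wild-type CTCF, 85.8% for RAD21, 53.0% for ZNF143 and 58.2% for the CTCF-AID list. Of the pairs in decile 10 of both lists, 95.97% lay at a wild-type ZNF143 peak.

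Where both factors were present their strengths moved together, though loosely. Over the 49865 summit pairs the Spearman correlation between CTCF and RAD21 signal was 0.756, and 0.741 over the 42333 pairs with neither summit at the count ceiling. These points share their genome position and its local background, so the value is a description. Pairs in the same decile of both lists made up 24.99%, and pairs at most 1 decile apart 60.6%. At the 6336 pairs with CTCF in decile 10 the median RAD21 signal was 19.6 (quartiles 18.2 and 20.9), and 2531 of them, 39.9%, also had RAD21 in decile 10. At the 2503 pairs with CTCF in decile 1 it was 7.69 (6.36 and 9.65).

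**Figure D2:**
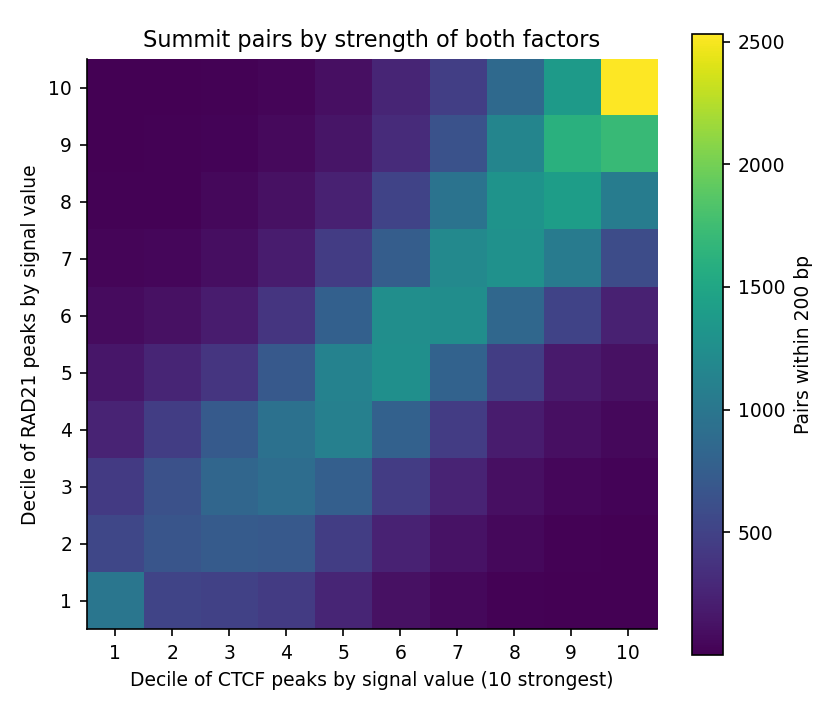
Number of CTCF and RAD21 summit pairs (colour) by signal decile of the CTCF peak (x) and of the RAD21 peak (y). Pairs gather along the diagonal and are most frequent where both are in decile 10 (2531 pairs), while the corners of strong CTCF with weak RAD21 and the reverse are nearly empty.

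Discordant pairs were few. Of the pairs with the strongest CTCF, 213 had RAD21 in deciles 1 to 5. Of the pairs with the weakest CTCF, 139 had RAD21 in deciles 6 to 10. The diagonal itself was uneven at its weak end: 994 pairs were in decile 1 of both lists, against 673 in decile 2 of both. The median background at the CTCF summit was 2.63 reads for those 994 pairs (quartiles 0.788 and 6.65), against 0.590 for the 673.

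RAD21 summits lay close to CTCF summits, and 96.2% of those paired lay inside the CTCF peak. The median distance over the 49865 pairs was 12 bp (quartiles 5 and 26). Of the pairs, 27.6% were at most 5 bp apart, 44.4% at most 10 bp and 68.0% at most 20 bp, whereas 19.2% were more than 30 bp apart. Beyond that the distribution fell away: 3.15% exceeded 50 bp and 244 pairs, 0.489%, exceeded 100 bp. The 200 bp window thus cut through an almost empty stretch.

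The signed offsets formed a narrow centre with a shoulder on each side. In bins of 5 bp, the bin at 0 held 6980 pairs and the bins at −20 and 20 held 2168 and 2033. The fall then slowed, with 1585, 1553 and 1345 pairs in the bins at −25, −30 and −35 and 1516, 1497 and 1289 in those at 25, 30 and 35. By −60 and 60 the bins held 117 and 106. RAD21 lay at the higher coordinate in 47.7% of pairs, at the lower in 49.3% and at the same base in 3.02%, so the offset had little preference for either strand of the reference. Offsets relative to the direction of the CTCF motif, which would need an hg19 genome, were not analysed here.

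**Figure D3:**
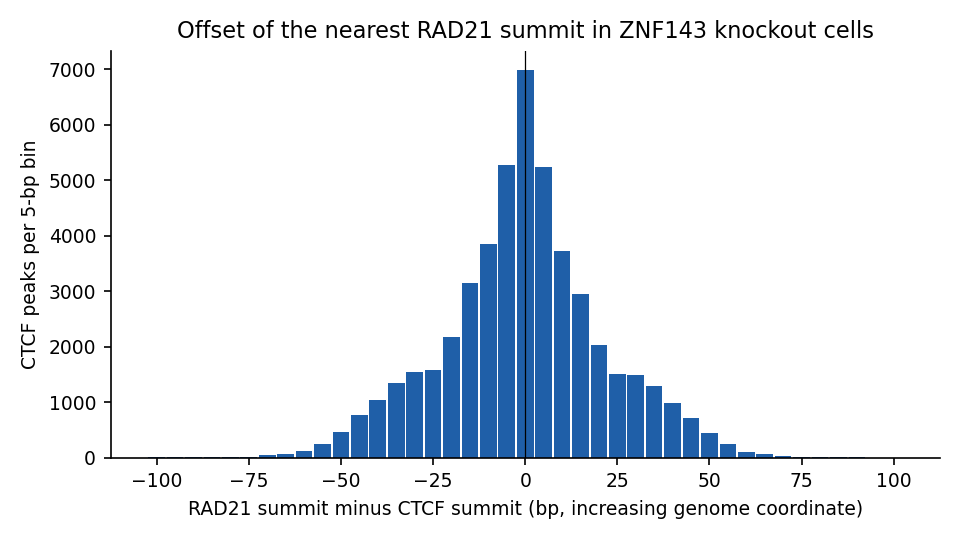
Number of CTCF peaks per 5-bp bin (y) by signed distance from the CTCF summit to its nearest RAD21 summit (x, bp along the reference) in knockout cells. The central bin holds 6980 pairs, and the slope flattens between about 25 and 35 bp on both sides before the counts fall to about 100 at 60 bp.

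Beyond this core the density of RAD21 summits around CTCF was far lower than within it. No genome-wide density was computed as a reference, so whether it lay above or below the average was not tested. Counted in shells around every CTCF summit, RAD21 summits had a density of 16.3 per CTCF summit per kb within 10 bp, 9.76 from 10 to 20 bp and 3.96 from 20 to 50 bp. The density was 0.256 from 50 to 100 bp and 0.0624 from 100 to 200 bp. From 200 bp to 20 kb it ranged between 0.0664 and 0.0317. RAD21 peaks of the same locus cannot lie arbitrarily close to each other, since a called peak has a width, and the shells inside 200 bp hold that limit.

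Distance hardly changed with the strength of either factor. The median was 12 or 13 bp in every CTCF decile, and between 11 and 14 bp across RAD21 deciles. It grew slightly with peak width, from 11 bp in the narrowest of 4 equal groups of paired CTCF peaks to 15 bp in the widest. Pairs whose RAD21 count was at the ceiling had a median of 18 bp (quartiles 7 and 35), with 31.5% beyond 30 bp, against 12 bp (5 and 24) for pairs with neither summit at the ceiling. At a ceiling the summit position can be set by a flat top, and the part of this in the wider spacing was not tested. Those ceiling pairs were also the ones most often at a wild-type ZNF143 peak, 98.3% of them.

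The discordant pairs differed in spacing. Weak CTCF (deciles 1 and 2) paired with strong RAD21 (deciles 6 to 10) at 332 sites, with a median distance of 25 bp (quartiles 8.75 and 48.25), 41.0% beyond 30 bp and 16.9% beyond 100 bp. Of these sites 2.41% lay at a wild-type ZNF143 peak, and they held 56 of the 244 pairs beyond 100 bp. Pairing did not ask that the CTCF summit also be the nearest to that RAD21 summit. Of all 49865 pairs 49662 were mutual in this sense, and how many of the 332 were not was not counted. The part of such pairs in the wider spacing was not tested. Strong CTCF (deciles 9 and 10) paired with weak RAD21 (deciles 1 to 5) at 572 sites, with a median of 10 bp (4 and 17), 7.52% beyond 30 bp and 64.0% at a wild-type ZNF143 peak. Where both were strong, at 7229 sites, the median was 13 bp (5 and 27) and 94.3% lay at a wild-type ZNF143 peak.

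In the strongest decile of both lists, the 3 pairs with the widest spacing reached at most 76 bp. They were chr22:24326680-24326835 with RAD21 76 bp to the right of CTCF, chr22:32774769-32774955 with RAD21 67 bp to the left, and chr9:135675650-135675811 with RAD21 66 bp to the left. All 3 overlapped peaks of each wild-type list. Of all pairs in the strongest decile of both lists, 95.97% lay at a wild-type ZNF143 peak.

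The side on which RAD21 lay could be checked in independent libraries. For 39193 of the 49865 pairs, wild-type cells had a CTCF summit within 50 bp of the knockout CTCF summit and, within 200 bp of that wild-type CTCF summit, a RAD21 summit. Over these, the signed offsets in knockout and wild type had a Pearson correlation of 0.525 and a Spearman correlation of 0.530, given as a description, since the sites of 1 pair of libraries are not replicates. Among pairs at least 10 bp apart in the knockout, RAD21 lay on the same side in both genotypes at 76.0% (75.4 to 76.6; 22989 sites). The share was 69.2% for all pairs at least 1 bp apart, 83.7% at 30 bp or more and 86.2% at 40 bp or more. The wider the spacing, the more often the side was repeated.

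Sites at a called wild-type ZNF143 peak repeated the side more often than the others. At 10 bp or more the share was 79.1% (78.5 to 79.8) with a wild-type ZNF143 peak and 69.7% (68.6 to 70.7) without. Strength accompanied this, since deciles 8 to 10 of CTCF gave 79.4% and deciles 1 to 5 gave 69.9%. Within deciles 8 to 10 the values were 80.3% (79.5 to 81.0) with and 71.6% (68.8 to 74.2) without a wild-type ZNF143 peak. RAD21 strength was not held equal. A wild-type ZNF143 peak was present at 11.8% of all pairs with RAD21 in decile 2 and 83.6% of those in decile 10.

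**Figure D4:**
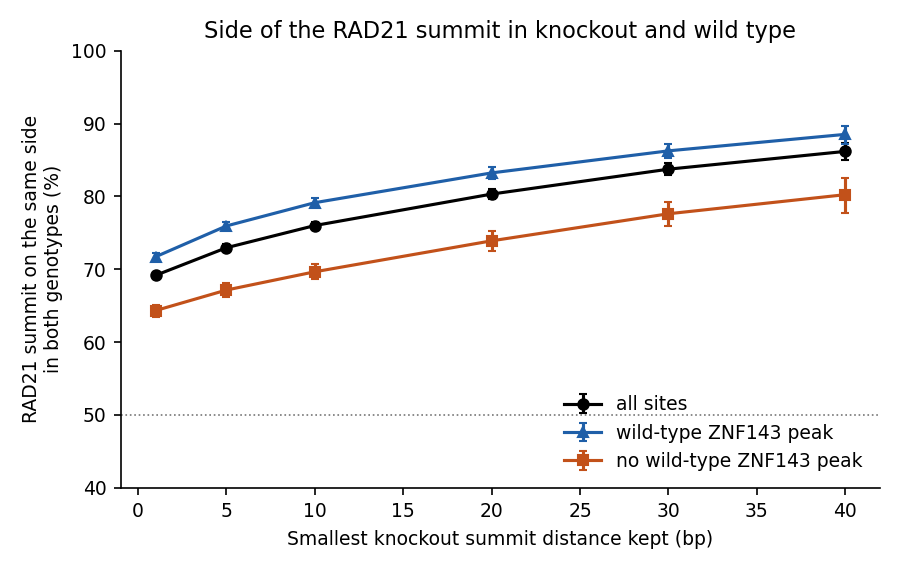
Share of sites at which RAD21 lay on the same side of CTCF in knockout and wild type (%, y) by the smallest knockout distance kept (x, bp), for all sites and by presence of a wild-type ZNF143 peak, with 95% exact intervals over sites. The y axis runs from 40% to 100% and the dotted line marks 50%. The share rises from 69.2% to 86.2% over all sites and is higher where wild-type cells had a ZNF143 peak, at every distance drawn.

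CTCF peaks without RAD21 were weak and narrow. Their median signal was 9.39 (quartiles 7.95 and 11.4) against 18.4 (13.4 and 21.9) for co-bound CTCF peaks, their median summit count 14 against 36, and their median width 47 bp against 121 bp. Deciles 1 to 4 held 12253 of the 13747, or 89.1%, and deciles 8 to 10 held 67. Within a decile they remained narrower: in decile 5 the median widths were 76 and 96 bp. Their median local background was 0.562 reads against 0.857. Alone here means without a deposited RAD21 peak, which leaves RAD21 signal under the authors' threshold uncounted.

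RAD21 peaks without CTCF were likewise weak. Their median signal was 7.62 (quartiles 6.68 and 8.89) against 15.2 (10.7 and 18.5), their median count 13 against 32 and their median width 43 bp against 128 bp. Deciles 1 to 4 held 6871 of the 7206, or 95.4%, and deciles 8 to 10 held 10. In decile 5 the median widths were 76 bp alone and 103 bp co-bound. The median background was 0.700 reads alone and 0.986 co-bound.

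The distance from a peak alone to the other factor follows in part from the definition of alone, and no reference distance was computed. The nearest RAD21 summit to a CTCF-alone summit lay at a median of 13102 bp, within 1 kb for 9.01% and within 10 kb for 42.4%. For RAD21-alone summits the nearest CTCF summit lay at a median of 11774 bp, within 1 kb for 12.9% and within 10 kb for 45.4%. In 100-kb bins with more than 20 peaks of the list lay 92 CTCF-alone peaks, 0.669% against 0.806% of all CTCF peaks, and 110 RAD21-alone peaks, 1.53% against 1.03% of all RAD21 peaks. The bin with the most CTCF-alone peaks, chr6:58700001-58800000, held 17 of them among 23 CTCF peaks, with a median background of 20.4 reads.

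The wild-type lists give an independent look at whether these solitary sites recur. Over all knockout CTCF peaks, 78.4% overlapped a wild-type CTCF peak, 69.0% a wild-type RAD21 peak and 42.2% a wild-type ZNF143 peak. Of CTCF-alone peaks, 44.8% (44.0 to 45.6) overlapped a wild-type CTCF peak, against 87.7% (87.4 to 87.9) of co-bound ones. Only 8.11% (7.66 to 8.58) overlapped a wild-type RAD21 peak, against 85.8% (85.5 to 86.1). So where CTCF stood alone in the knockout, wild-type cells mostly had no RAD21 peak either. However, 51.5% of these sites had no wild-type peak of any of the 3 factors. The wild-type RAD21 library was also the shallower one, with 7.81 background reads per kb against 26.1 in the knockout. The 8.11% depends on the list: it was 19.26% for the stronger 50% of each list and 1.99% for peaks with a −log10 q of at least 10. Alone then means without a RAD21 peak in the shortened list, so CTCF peaks with a weaker deposited RAD21 peak are included.

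RAD21-alone peaks gave the mirror image. Over all knockout RAD21 peaks, 79.1% overlapped a wild-type RAD21 peak, 77.5% a wild-type CTCF peak and 48.0% a wild-type ZNF143 peak. Of RAD21-alone peaks, 32.4% (31.3 to 33.5) overlapped a wild-type RAD21 peak, against 85.9% (85.5 to 86.2) of co-bound ones. At a −log10 q of at least 10 the 32.4% became 13.87%. A wild-type CTCF peak was present at 8.01% (7.39 to 8.66) of RAD21-alone peaks, against 87.6% (87.3 to 87.9) of co-bound ones. The 8.01% became 15.71% when a reciprocal overlap of 50% was asked for, 17.03% at equal list lengths, 13.33% in the stronger 50% of each list and 3.94% at a −log10 q of at least 10. Alone was defined anew under each of these settings, so peaks that were co-bound in the deposited lists can be included. No wild-type peak of any of the 3 factors was found at 51.5% of CTCF-alone peaks and 55.9% of RAD21-alone peaks, against 5.57% and 5.53% of co-bound ones.

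Since peaks alone were weak, the classes were also compared within strength deciles. For the own factor the difference between the classes was 17.7 points in CTCF decile 1 and 5.18 points in CTCF decile 7. The fall was not steady, with 7.65 points in CTCF decile 2 and 12.8 points in CTCF decile 4. In CTCF decile 5, 80.2% of alone and 91.1% of co-bound peaks had a wild-type CTCF peak, and in CTCF decile 7 the shares were 94.0% and 99.2%. In RAD21 decile 5 the difference was larger, with a wild-type RAD21 peak at 70.7% of alone and 92.4% of co-bound peaks. For the partner the classes were farther apart: in CTCF decile 4 a wild-type RAD21 peak was present at 11.2% of alone and 70.0% of co-bound peaks. At CTCF-alone peaks this share was higher in stronger deciles, with 15.4% in decile 5 and 30.7% in decile 7. In RAD21 decile 4 a wild-type CTCF peak was present at 8.81% of alone and 77.2% of co-bound peaks. A CTCF-alone site of middling strength was therefore usually a CTCF site in wild-type cells too, and again without a RAD21 peak.

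**Figure D5:**
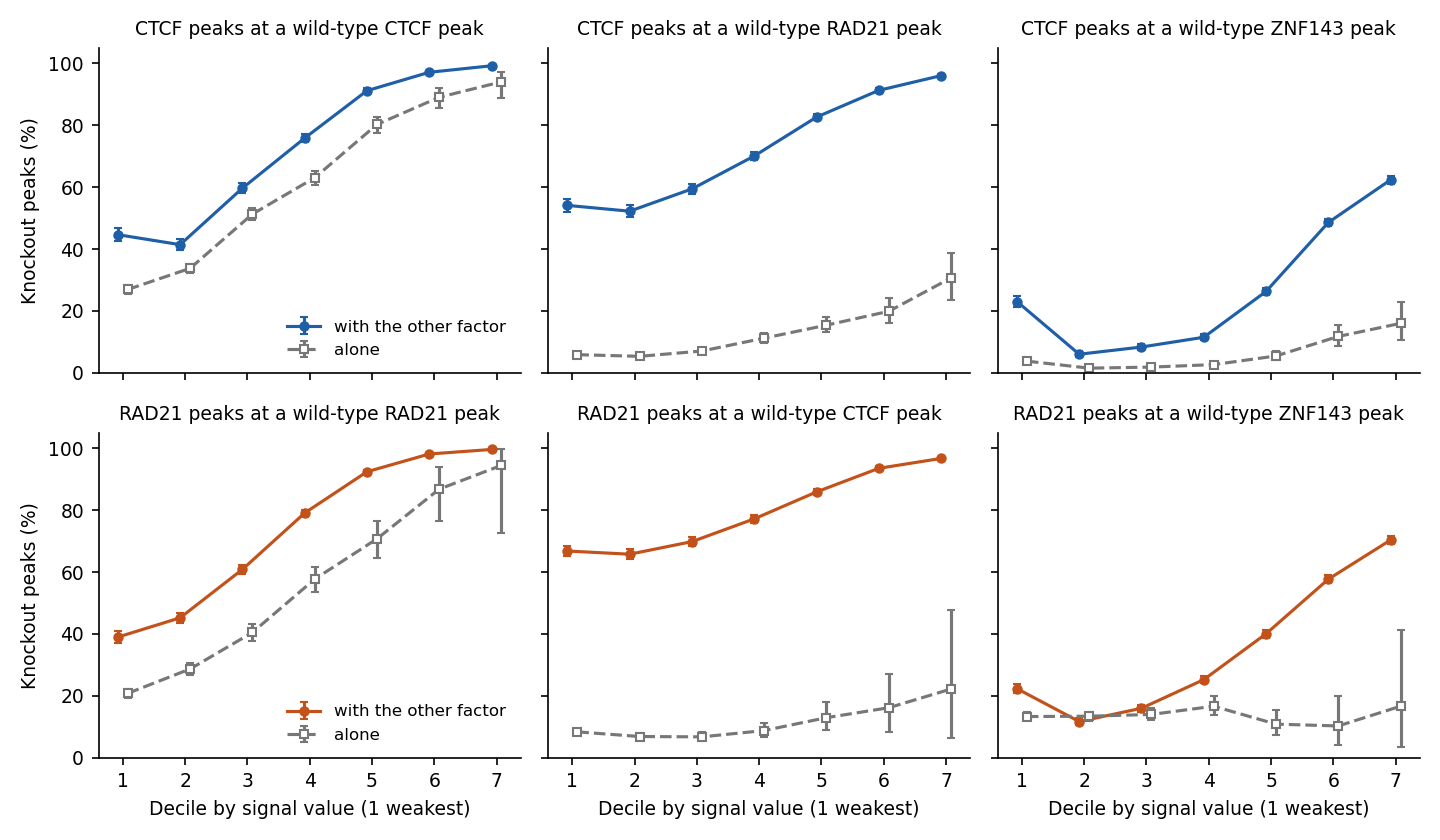
Share of knockout peaks at a wild-type peak (%, y) by strength decile (x, deciles 1 to 7) for co-bound peaks (filled circles) and peaks alone (open squares), with 95% exact intervals over peaks; CTCF peaks above, RAD21 peaks below. In deciles 1 to 5 the curves differ by 7.65 to 21.7 points for the own factor on the left and are farther apart for the partner in the middle. On the right RAD21 peaks alone stay between 10.3% and 16.7% at wild-type ZNF143 peaks while co-bound ones climb.

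A wild-type ZNF143 peak was less frequent at solitary sites than at co-bound ones in the deposited lists. It was present at 3.27% (2.98 to 3.58) of CTCF-alone and 13.7% (12.9 to 14.5) of RAD21-alone peaks, against 53.0% of co-bound peaks of either list. The order of the solitary classes turned in the stronger 50% of each list, where it was present at 18.1% of CTCF-alone and 4.85% of RAD21-alone peaks. Alone there means without a partner in the stronger 50% of the other list, which 79.33% of CTCF and 88.47% of RAD21 peaks had. In the deposited lists every decile from 6 upward had a partner at 94.0% or more of CTCF and 98.8% or more of RAD21 peaks. Most of these alone peaks thus had a weaker deposited partner. With a reciprocal overlap of 50% asked of every pair of lists, the shares were 2.76% of CTCF-alone and 6.85% of RAD21-alone peaks, against 20.19% of co-bound CTCF and 13.2% of co-bound RAD21 peaks. At a −log10 q of at least 10 the share of CTCF-alone peaks was 2.02%. By RAD21 decile, the alone and co-bound shares were 13.3% and 22.3% in decile 1, 13.4% and 11.7% in decile 2, and 14.0% and 16.0% in decile 3. They were 16.7% and 25.2% in decile 4, then 10.9% against 40.1% in decile 5 and 10.3% against 57.7% in decile 6.

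ZNF143 peaks at RAD21-alone sites were mostly still called after 24 h of auxin, which is used to degrade the tagged CTCF. In CTCF-AID cells, 1239 RAD21-alone peaks (17.2%) lay at a ZNF143 peak before auxin, fewer than the 38.8% of co-bound RAD21 peaks. Of the 1239, 1043 (84.2%) also lay at a ZNF143 peak after 24 h of auxin. For co-bound RAD21 peaks at a ZNF143 peak before auxin the share was 31.6%, and for the 439 CTCF-alone peaks it was 58.1%. After 24 h, 15.7% of RAD21-alone and 12.4% of co-bound RAD21 peaks lay at a ZNF143 peak, with an order that varied by decile. The whole ZNF143 list held 34531 peaks before auxin and 16392 after it, and 13865 CTCF peaks were still called at 24 h. Few RAD21-alone sites had a CTCF peak elsewhere in the series: 734 of 7206, or 10.2%, overlapped a CTCF peak in any other CTCF list of the series, against 88.3% of co-bound RAD21 peaks.

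The weakest co-bound peaks lay at wild-type ZNF143 peaks more often than those of the next decile. Among co-bound CTCF peaks, 23.1% in decile 1 overlapped a wild-type ZNF143 peak, against 6.03% in decile 2 and 11.5% in decile 4. The 546 of decile 1 with a wild-type ZNF143 peak had a median background of 5.30 reads (quartiles 2.96 and 8.77) and a median summit count of 38, whereas the 1822 without one had 0.571 and 11. Their low fold enrichment thus came with a high count over a high background. RAD21 showed the same, with a median background of 4.78 reads at 639 co-bound decile 1 peaks with a wild-type ZNF143 peak and 0.752 at 2221 without.

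Peaks alone were mixed in this respect. In CTCF decile 1, the 151 CTCF-alone peaks with a wild-type ZNF143 peak had a median background of 2.58 reads (quartiles 0.746 and 14.5) and a median count of 23, against 0.573 and 11 for the 3823 without one. In RAD21 decile 1, the 377 RAD21-alone peaks with a wild-type ZNF143 peak had a median background of 1.02 reads and a count of 12, and the 2450 without one had 0.966 and 12. Background was also higher at ZNF143 sites in decile 2 of co-bound CTCF peaks, with 2.27 reads at 163 peaks against 0.522 at 2539.

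The strongest solitary CTCF peaks were all in decile 10. The first, chr2:89977724-89977831, had a signal of 25.6 and its nearest RAD21 summit at 5511 bp. The others were chr4:123222044-123222148 (signal 25.2, nearest RAD21 9227 bp), chr8:95218344-95218504 (24.2, 7554 bp), chrX:11696469-11696572 (24.2, 46245 bp) and chr22:35765354-35765470 (23.6, 11696 bp). All 5 overlapped a wild-type CTCF peak and also a wild-type RAD21 peak. A wild-type RAD21 peak was present at 8.11% of all CTCF-alone peaks, most of them in weak deciles. By decile the share was 5.89% in decile 1, 11.2% in decile 4 and 30.7% of 150 peaks in decile 7. The peaks on chromosomes 8 and X also overlapped a wild-type ZNF143 peak. The distances depend on which weak partner peaks are kept: in the stronger 50% of each list that of the chromosome 8 peak was 66306 bp and that of the chromosome 22 peak 18443 bp, and at a −log10 q of at least 10 that of the chromosome 8 peak was 56162 bp.

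The strongest solitary RAD21 peaks were chr8:97022214-97022316 (signal 20.3, nearest CTCF summit 17052 bp), chr5:168975463-168975564 (18.8, 6954 bp), chr13:86453267-86453384 (18.8, 14055 bp), chr2:16503312-16503449 (18.6, 40028 bp) and chr11:67494992-67495040 (18.4, 13439 bp). All 5 overlapped a wild-type RAD21 peak, as did 32.4% of all RAD21-alone peaks and 94.4% of the 18 in RAD21 decile 7. Of the 5, those on chromosomes 5 and 13 had a wild-type CTCF peak, the other 3 had none, and none of the 5 had a wild-type ZNF143 peak. In the stronger 50% of each list the nearest CTCF summit to the chromosome 8 peak lay at 43336 bp. That of the chromosome 5 peak lay at 29715 bp there, at equal list lengths and at a −log10 q of at least 10.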

How the data were processed

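The authors deposited 1 peak list per library in the narrow-peak layout. Per the submitters' processing notes the tools were cutadapt 2.10, Bowtie2 2.3.5.1, SAMtools 1.12, MACS2 2.2.7.1 and deepTools, and the build was GRCh37 (hg19); settings and any pooling of cultures are not given in the sources used here. The deposited score is the −log10 q times 10 without its decimals, with few exceptions, the deposited signal value is a ratio (fold enrichment over local background), the deposited −log10 p and −log10 q belong to each peak, and the deposited summit offset gives its position. Summit counts and backgrounds were solved from the ratio and −log10 p, with 1 added to both as MACS2 does; whole counts gave the knockout −log10 p values within 0.000160. Groups came from sample titles.

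Overlap asked for 1 bp and summits were paired within 200 bp. Named peaks are the 5 strongest co-bound CTCF, CTCF-alone and RAD21-alone peaks and the 3 widest pairs in the strongest decile of both lists, outside 100-kb bins with over 20 peaks. The summit pairs, classes and looked-up lists were chosen with earlier results of these data known. Distances oriented by the CTCF motif and gene names were not analysed here. Calculations ran in Python 3.11.15 with scipy 1.17.1, pandas 2.3.3, numpy 2.4.6 and, for plots, matplotlib 3.10.9. Code was checked against known answers: overlaps and distances of 750 peaks on chromosome 21 matched an all-pairs count. Alternatives covered the overlap asked for, list length, threshold, window, crowded bins, chromosome X and the ranking measure.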

Additional observations from a re-analysis of the deposited data

Results flagged for a closer look

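Peaks outside chromosomes 1 to 22 and X entered no comparison above. The knockout CTCF list held 252 peaks on chromosome Y and 340 on mitochondrial and unplaced sequences, and the knockout RAD21 list held 283 and 355. Of the CTCF peaks, 83.73% on chromosome Y (78.6 to 88.1) and 80.0% on the mitochondrial and unplaced sequences (75.3 to 84.1) overlapped a RAD21 peak. Of the RAD21 peaks, 74.91% on chromosome Y (69.4 to 79.9) and 77.75% on the other sequences (73.1 to 82.0) overlapped a CTCF peak. Median backgrounds at the summits were 1.02 and 2.301 reads for CTCF and 1.25 and 2.42 reads for RAD21.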

How the results depend on the processing

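The strongest decile exceeded the weakest in both lists under every alternative run, and the median summit distance stayed at 12 or 13 bp in those run for it. The order of the lists was less stable: the decile difference was larger for CTCF than for RAD21 except at equal list lengths, and wild-type ZNF143 peaks were more frequent at RAD21-alone than at CTCF-alone peaks except in the stronger 50% of each list. With 1 library per group, leaving out a replicate was not possible. No paired analysis was possible because each group holds 1 library. The causes of the movements below were not tested. By construction, however, a stricter overlap lowers shares, and equal list lengths bring the CTCF and RAD21 overlap shares together. In each alternative, alone means without a partner peak under that setting, so peaks co-bound in the deposited lists can count as alone. With a reciprocal overlap of 50%, 69.42% of CTCF and 77.42% of RAD21 peaks were co-bound, the strongest decile exceeded the weakest by 72.34 points for CTCF and 65.73 for RAD21, and 11.01% of CTCF-alone and 15.71% of RAD21-alone peaks had the partner's wild-type peak. In the stronger 50% of each list the overlap shares were 79.33% and 88.47%, the summit shares 79.31% and 88.45%, the decile differences 54.12 and 28.98 points and the wild-type partner shares 19.26% and 13.33%. With both lists at the shorter list's length, these were 83.06% and 83.08%, 83.16% and 83.47%, 57.45 and 66.43 points, and 9.065% and 17.03%. At a −log10 q of at least 10 they were 77.63% and 90.51%, 77.77% and 90.61%, 65.37 and 36.69 points, and 1.99% and 3.94%. Windows of 100 and 500 bp gave summit shares of 78.24% and 79.53% for CTCF and 87.3% and 88.45% for RAD21. Without crowded bins the decile differences were 65.82 and 51.46 points, and with deciles of −log10 p they were 67.42 and 51.87 points. Without RAD21 peaks at the count ceiling, an alternative chosen after the data were seen, the RAD21 difference was 51.16 points. The thresholds and lengths used for the wild-type comparison were also chosen after the data were seen. The distance oriented by the CTCF motif was not run. Summits at or near the count ceiling limit the ranking of the strongest peaks of both lists and the positions of the strongest RAD21 peaks. Peaks under the authors' threshold cannot be told from absent binding.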
